A study of Mus musculus with 109 samples.

Results

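The transcripts of 51 cell cycle genes were followed in mouse microglia, the resident macrophages of the brain, after injection of lipopolysaccharide (LPS), a bacterial cell wall component that provokes inflammation. The genes were chosen by name, as listed genes of S phase, G2 and mitosis, with no threshold on their values, though earlier results of these data were known when the list was made. The series holds values for 13902 genes in all. The data come from MARS-seq, an RNA sequencing method that counts the 3′ ends of transcripts, run on bulk microglia that were sorted from brain by CD45 and CD11b, and 89 libraries of 7 experiments were used.

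The double mutants were CX3CR1-CreER:IL10Rafl/fl:TNFfl/fl mice, with 5 untreated libraries, 6 at 6 h and 4 at 48 h after LPS. The Il10ra mutants were CX3CR1-CreER:IL10Rafl/fl mice, with 9 untreated libraries, 7 at 6 h, 5 at 24 h and 5 at 48 h. The doubly floxed controls, IL10Rafl/fl:TNFfl/fl without the recombinase, gave 6 untreated libraries, 5 at 6 h and 6 at 48 h. The Il10ra-floxed controls, IL10Rafl/fl, gave 6 untreated libraries, 6 at 6 h, 4 at 24 h, 6 at 48 h and 4 at day 7. A further 4 libraries came from untreated C57BL/6 mice. LPS was injected into the peritoneum at 2.5 mg/kg. Both mutant lines and both control lines carry loxP-flanked Il10ra, the receptor chain for interleukin 10, and the doubly floxed lines also carry loxP-flanked Tnf, which encodes tumour necrosis factor. CX3CR1-CreER is an inducible recombinase under the control of the fractalkine receptor locus, which is active in microglia and also in other macrophages that express this receptor. Age, sex and the induction of the recombinase are not given in the labels used here.

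As background, a dividing cell first loads the Mcm2 to Mcm7 helicase on its DNA with the help of Cdc6 and Cdt1, then copies the DNA at forks held by the Pcna clamp with nucleotides made by ribonucleotide reductase, thymidylate synthase and thymidine kinase. Cyclin-dependent kinases, Aurora and Polo kinases, the spindle and the anaphase-promoting complex then carry it through mitosis. In many of these genes an E2F site drives transcription in S phase, while CHR and CCAAT elements serve the later genes of G2 and mitosis. Adult microglia renew by local division and rarely divide at rest.

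The 51 genes fall into 7 roles: 10 in licensing and the replication fork, 4 in nucleotide supply, 6 cyclins and Cdk1, 10 mitotic kinases, checkpoint and anaphase-promoting complex genes, 4 of the centromere and kinetochore, 10 of the spindle and cytokinesis, and 7 of chromosome structure and chromatin. The first pair of roles is called S phase genes here. The values are the authors' normalised reads, in 4 tables that were normalised separately, so every test stays within a table. The table with the double mutants held a row for each of the 51 genes, the table of Il10ra-floxed controls for 50, the table of Il10ra mutants for 49 and the C57BL/6 table for 39. A gene was tested where its value was 5 or more in a number of libraries no smaller than the smallest group, which 51, 41 and 42 of the genes did in the first 3 of these tables. Genes that passed this filter only because they were high in 1 group had to differ, so counts over those tested are descriptions.

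Depth ranged over the tables' libraries from 540642 to 2489084 reads. Il10ra checked the labels: it had 63.1 ± 33.2 normalised reads in untreated Il10ra mutants (SD, n = 9), against 542 ± 103 in untreated Il10ra-floxed controls (SD, n = 6). In double mutants it had 27.0 ± 10.7 (SD, n = 5), against 483 ± 42.4 in doubly floxed controls (SD, n = 6). These groups did not overlap. The 10 microglial markers, among them P2ry12, Tmem119 and Cx3cr1, were detected in every group. Which of the sorted cells held the cell cycle transcripts cannot be told from bulk libraries. The labels of 1 library at 48 h name both a control and a mutant genotype, and it entered no comparison. The column of that library carries the word mistake. The column of 1 untreated double mutant library, number 4, also carries this word, and that library was kept in its labelled group.

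The promoters of the genes shared sequence features that the choice of genes did not use. RefSeq windows of 300 bases on GRCm38.p6, from 250 bases before to 50 bases after the start of transcription, were found for 42 of the 51 genes (45 windows, since some genes have more than 1 start). They were searched on both strands for the CHR letters TTTGAA, for CCAAT, and for the E2F letters TTTCCCGC, TTTGGCGC and TTTCGCGC. No string of letters searched lies inside another, though neighbouring matches can share end letters. CHR letters lay in 71.9% of the 32 windows of cyclin, mitotic and chromatin genes, in 7.69% of the 13 windows of S phase genes and in 17.9% of all 32851 windows of the table. E2F letters lay in 9.38% of the windows of cyclin, mitotic and chromatin genes, in 46.2% of the windows of S phase genes and in 1.84% of all windows. CCAAT lay in 82.2% of the windows of the cell cycle genes and in 37.4% of all windows. The windows with E2F letters among S phase genes were those of Cdc6, Cdt1, Mcm3, Mcm5, Mcm6 and Mcm7, and Mcm2 was the S phase gene with CHR letters.

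Windows are shown for 6 of the 7 roles, as examples of S phase genes (Pcna and Rrm1) and of genes of G2 and mitosis (Ccnb2, Ube2c, Cenpa and Tacc3); no window of the chromosome and chromatin genes is printed. Each was picked as the matched gene of its role with the highest mean in the table with the double mutants. Capitals mark CHR, CCAAT and E2F letters on either strand. Pcna lies at chr2:132253131-132253430 on the minus strand, Rrm1 at chr7:102441445-102441744 on the plus strand, Ccnb2 at chr9:70421505-70421804 on the minus strand, Ube2c at chr2:164769679-164769978 on the plus strand, Cenpa at chr5:30666636-30666935 on the plus strand and Tacc3 at chr5:33657878-33658177 on the plus strand.
Pcna: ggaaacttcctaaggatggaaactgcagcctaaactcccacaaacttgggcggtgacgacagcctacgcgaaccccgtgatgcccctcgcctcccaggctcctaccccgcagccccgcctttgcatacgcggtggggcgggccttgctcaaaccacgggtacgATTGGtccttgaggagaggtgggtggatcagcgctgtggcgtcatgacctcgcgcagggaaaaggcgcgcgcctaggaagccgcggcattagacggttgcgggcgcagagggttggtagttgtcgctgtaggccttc
Rrm1: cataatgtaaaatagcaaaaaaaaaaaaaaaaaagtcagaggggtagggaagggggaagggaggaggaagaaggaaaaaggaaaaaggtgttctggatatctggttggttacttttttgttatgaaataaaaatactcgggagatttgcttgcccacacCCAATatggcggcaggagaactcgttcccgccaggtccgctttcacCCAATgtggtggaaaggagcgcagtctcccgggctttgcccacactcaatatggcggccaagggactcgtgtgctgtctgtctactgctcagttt
Ccnb2: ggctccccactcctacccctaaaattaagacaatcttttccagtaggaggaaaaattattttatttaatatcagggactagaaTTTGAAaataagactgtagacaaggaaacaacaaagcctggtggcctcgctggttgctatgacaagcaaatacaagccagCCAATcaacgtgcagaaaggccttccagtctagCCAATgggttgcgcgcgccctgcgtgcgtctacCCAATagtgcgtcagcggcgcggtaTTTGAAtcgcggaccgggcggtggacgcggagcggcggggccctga
Ube2c: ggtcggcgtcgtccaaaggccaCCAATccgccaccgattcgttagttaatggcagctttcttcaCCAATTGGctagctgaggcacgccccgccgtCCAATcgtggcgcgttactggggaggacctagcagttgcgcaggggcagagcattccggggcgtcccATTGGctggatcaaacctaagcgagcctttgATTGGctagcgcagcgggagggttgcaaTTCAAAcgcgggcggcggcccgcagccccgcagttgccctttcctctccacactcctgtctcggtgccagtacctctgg
Cenpa: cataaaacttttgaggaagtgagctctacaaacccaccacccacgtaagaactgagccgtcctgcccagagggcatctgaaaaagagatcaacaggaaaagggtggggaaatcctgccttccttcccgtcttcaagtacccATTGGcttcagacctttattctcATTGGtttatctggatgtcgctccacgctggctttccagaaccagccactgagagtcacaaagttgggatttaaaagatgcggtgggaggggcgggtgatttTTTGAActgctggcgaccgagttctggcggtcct
Tacc3: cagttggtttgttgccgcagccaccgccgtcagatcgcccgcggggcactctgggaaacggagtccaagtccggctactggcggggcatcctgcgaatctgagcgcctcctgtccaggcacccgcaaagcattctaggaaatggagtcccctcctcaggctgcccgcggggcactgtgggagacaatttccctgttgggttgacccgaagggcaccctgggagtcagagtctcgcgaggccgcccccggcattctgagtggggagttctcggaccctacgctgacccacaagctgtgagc
The Pcna window holds 1 CCAAT element and neither CHR nor E2F letters, and the Rrm1 window 2 CCAAT matches and neither of the others. The Ccnb2 window holds 2 CHR and 3 CCAAT matches, the Ube2c window 1 CHR and 6 CCAAT matches, and the Cenpa window 1 CHR and 2 CCAAT matches. The Tacc3 window, of a mitotic gene, holds none of the letters searched. A match of letters is not a binding site.

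In the absence of LPS the genes were at a low level in every genotype. Their summed level was 481.1 to 552.0 normalised reads per library in untreated double mutants and 397 to 492 in untreated doubly floxed controls. It was 354 to 549 in untreated Il10ra mutants and 327 to 533 in untreated Il10ra-floxed controls. In the C57BL/6 table the 39 genes with a row summed to 346 to 401. No gene passed the test between a mutant and its controls before LPS. Between untreated Il10ra mutants and Il10ra-floxed controls limma called 0 of 42 genes, with 3 at an unadjusted p under 0.05 and 0 by edgeR and DESeq2. Over all genes tested, 0.00865% were called in that comparison. The median log2 difference of the 42 genes was 0.342, and 34 of the differences were positive. Mki67, the proliferation marker that coats mitotic chromosomes, averaged 5.33 ± 2.82 in untreated Il10ra mutants (SD, n = 9) and 2.12 ± 0.497 in untreated Il10ra-floxed controls (SD, n = 6), with a log2 difference of 0.93 ± 0.48 (SE) that did not pass the threshold (adjusted p = 0.9999, limma). Between untreated double mutants and doubly floxed controls limma called 0 of 51 genes, with 2 at an unadjusted p under 0.05 and 0 by edgeR and DESeq2, where 0.0254% of all genes were called. The median log2 difference of the 51 genes was 0.172, and 35 of the differences were positive.

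In Il10ra-floxed controls the genes rose together at 48 h after LPS and not at the earlier times. Their summed level per library was 355 to 579 normalised reads before LPS, 425.2 ± 32.7 (mean ± SD, n = 6) at 6 h, 418 to 578 at 24 h, 705 to 1969 at 48 h and 355 to 604 at day 7. The 48 h libraries lay above those of every other time. All 6 came from the third experiment, which held untreated libraries of this line but none at 6 h or 24 h. Time and experiment thus cannot be told apart between 48 h and those times. At 48 h limma called 31 of the 41 tested genes, each of them higher than before LPS, against 11.1% of all genes called higher and 7.9% called lower (19.0% in either direction). The median log2 difference of the 41 genes was 1.85, and that of all genes was -0.02. Fold changes of this line at 48 h rest on the 3 untreated libraries of the third experiment, because each experiment has its own term. The untreated means and ranges given cover all 6 untreated libraries. For 19 genes the 48 h and untreated libraries did not overlap, each of them higher at 48 h, as 8.6% of all genes did in this direction.

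**Figure D1:**
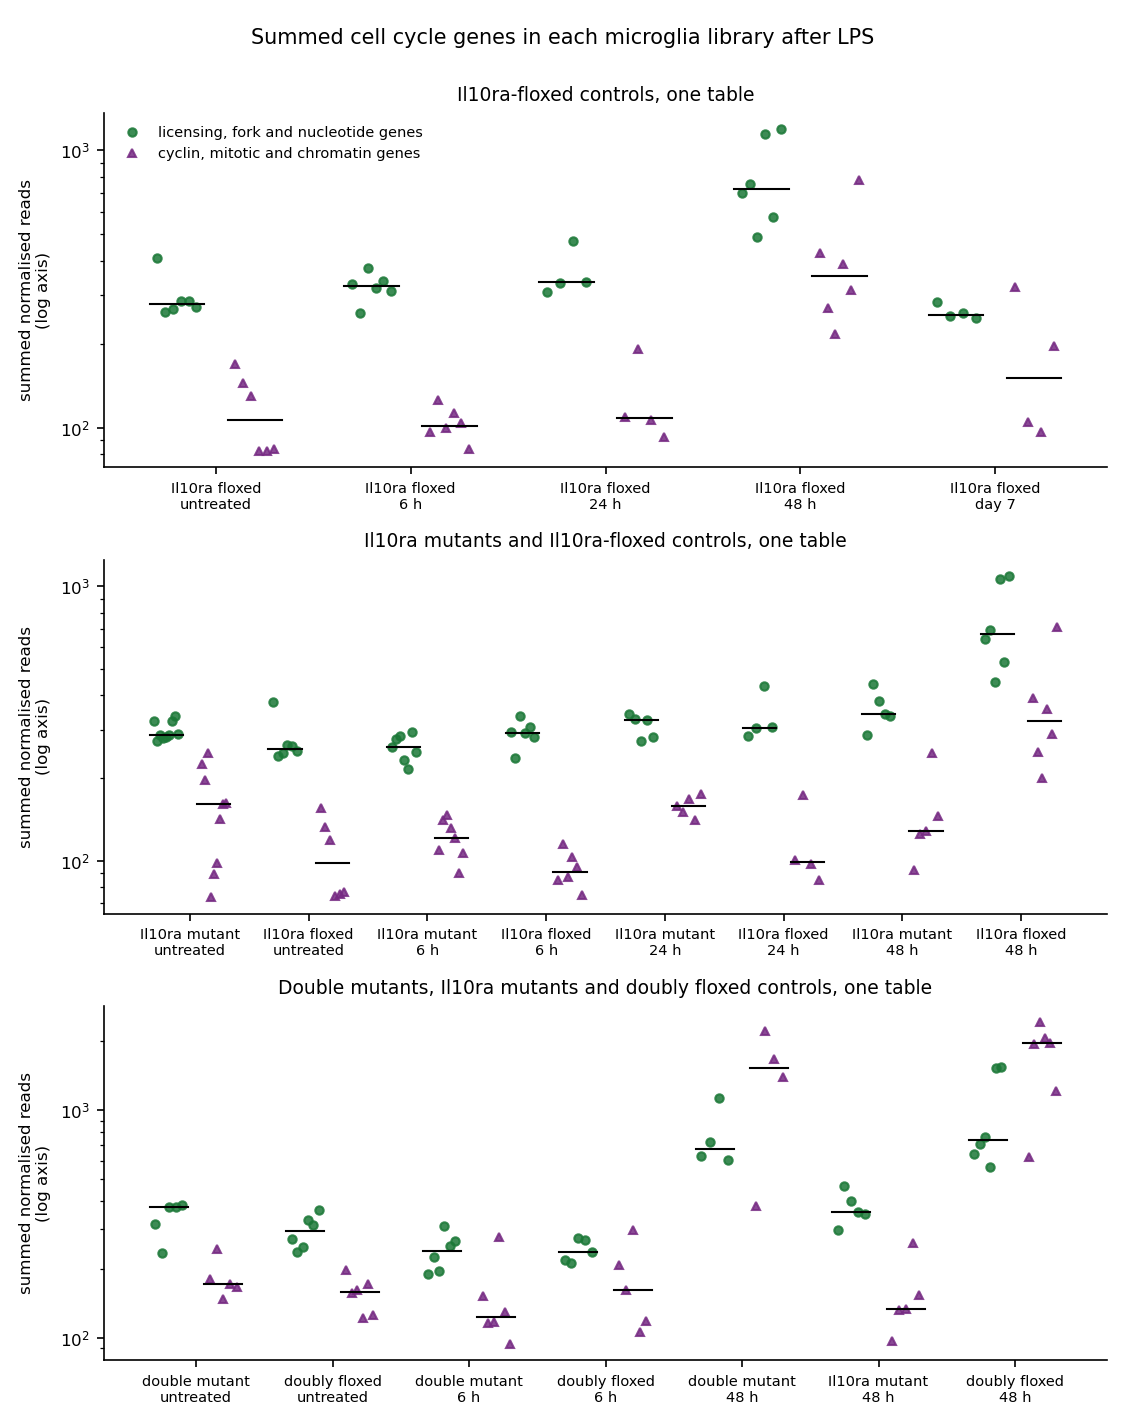
Summed normalised reads (log axis) in each library, for the 14 S phase genes (circles) and the remaining cell cycle genes (triangles), with the median of the group as a line. Panels are the 3 separately normalised tables; the Il10ra-floxed controls peak at 48 h, and at 48 h the Il10ra mutants stay near the untreated libraries while double mutants and doubly floxed controls lie above them.

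The genes of licensing and the fork rose in Il10ra-floxed controls at 48 h in each of the 10 cases. Mcm5, a subunit of the helicase, had a lowest value of 51.3, a median of 88.9 and a highest value of 165 at 48 h, against 17.2, 21.4 and 39.3 before LPS. The groups did not overlap, and the log2 difference was 2.10 ± 0.38 (SE, adjusted p = 0.0001801, limma). Cdt1, which loads the helicase, averaged 70.6 ± 29.9 at 48 h and 18.1 ± 8.55 before LPS (SD, n = 6 each), and its groups did not overlap. Pcna moved least of the 10, with 98.5 ± 26.9 at 48 h and 66.4 ± 11.3 before LPS (SD, n = 6 each), a log2 difference of 0.68 ± 0.19 (SE, adjusted p = 0.01005, limma) and overlapping groups.

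The 4 genes of nucleotide supply also rose. Tk1, the thymidine kinase of the salvage pathway, had a lowest value of 7.69, a median of 31.1 and a highest value of 51.9 at 48 h, against 3.68, 5.07 and 7.47 before LPS, with a log2 difference of 2.50 ± 0.42 (SE, adjusted p = 7.267e-05, limma). The groups did not overlap, with the third 48 h library close to the untreated ones and the other 5 well above them. Rrm1, the large subunit of ribonucleotide reductase, averaged 45.9 ± 9.57 at 48 h and 21.5 ± 2.83 before LPS (SD, n = 6 each), with no overlap.

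Of the cyclins and Cdk1, Ccne1 and Ccna2 rose, with log2 differences of 2.43 and 2.14, while Ccnb2 and Cdk1, the partners of mitotic entry, had log2 differences of 1.61 and 1.35 with adjusted p of 0.08025 and 0.0673 (limma). Of the mitotic kinase, checkpoint and anaphase-promoting complex genes, 7 of 9 rose. Cdca8, a subunit of the chromosomal passenger complex, had a lowest value of 8.27, a median of 13.4 and a highest value of 21.0 at 48 h, against 0.735, 1.64 and 5.84 before LPS. Its groups did not overlap and its log2 difference was 2.64 ± 0.41 (SE, adjusted p = 2.252e-05, limma). Ube2c, the ubiquitin-conjugating enzyme of the anaphase-promoting complex, averaged 11.1 ± 6.07 at 48 h and 1.70 ± 2.40 before LPS (SD, n = 6 each). Plk1, the Polo kinase, stood apart with 8.12 ± 5.88 at 48 h and 7.18 ± 1.48 before LPS, a log2 difference of -0.02 ± 0.48 (SE, adjusted p = 0.9854, limma).

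Spindle genes rose in 5 of 7 cases, among them Kif22, a chromosome-binding kinesin, at 13.6 ± 7.20 against 2.31 ± 2.09, and Tacc3, which stabilises kinetochore microtubules, at 36.0 ± 14.9 against 12.6 ± 3.44, for 48 h and untreated libraries (SD, n = 6 each). Neither gene's groups overlapped. Of the chromosome and chromatin genes, Top2a, Mki67 and Uhrf1 rose, and Hmgb2, Smc2 and Pimreg did not pass the threshold. Mki67 had a lowest value of 2.48, a median of 11.1 and a highest value of 37.9 at 48 h, against 1.57, 2.50 and 2.94 before LPS, with a log2 difference of 1.87 ± 0.59 (SE, adjusted p = 0.02505, limma). The second 48 h library lay within the untreated range, and the sixth was the highest for both Mki67 and Top2a. The one tested centromere gene, Cenpa, the centromeric histone, had a log2 difference of 1.10 ± 0.52 (SE, adjusted p = 0.1426, limma).

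The listed pathway genes outside the members are counted against the same share of all genes, 11.1% higher and 7.9% lower at 48 h. Of 41 tested S phase genes 23 rose and none fell, and of 29 tested G2 and M phase genes 15 rose and none fell, with median log2 differences of 1.06 and 1.16. Kif2c, a microtubule-depolymerising kinesin, averaged 46.1 ± 10.3 at 48 h and 3.17 ± 1.20 before LPS (SD, n = 6 each). It did not follow the time course of the members, since it was already at 101.6 ± 33.4 at 6 h (SD, n = 6). Of 18 cell cycle transcription factors 4 rose, among them E2f1 at 32.9 ± 16.4 against 5.03 ± 1.52 before LPS (SD, n = 6 each). Of 16 CDK inhibitors and antiproliferative genes 2 rose, close to the share of all genes, and 3 fell. Ccng2, an atypical cyclin linked to cell cycle exit, fell to 31.9 ± 11.3 at 48 h, against 137 ± 43.2 before LPS.

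Sums of markers of other cells differed at 48 h as well. The 8 monocyte markers summed to 161 to 291 normalised reads at 48 h and to 20.6 to 42.8 before LPS. The 8 border macrophage markers summed to 64.9 to 121 at 48 h and to 14.9 to 66.9 before LPS. The 10 microglial markers summed to 24770 to 30720 at 48 h and to 40040 to 41910 before LPS. Neutrophil markers summed to 29.0 to 261 at 48 h and to 6.01 to 815 before LPS. Neutrophil precursor markers summed to 0.998 to 9.71 at 48 h and to 0.858 to 514 before LPS. Camp, Ltf and Elane were at 0 in each 48 h library. The part of these cells in the cell cycle result was not tested. In bulk libraries fewer cells of a type and less RNA per cell cannot be told apart, nor can more dividing cells and more transcript per dividing cell.

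Earlier after LPS the members called went in both directions. A smaller share of members than of all genes was called, 17.1% at 6 h and 14.6% at 24 h. At 6 h limma called 1 of 41 genes higher and 6 lower, against 20.4% of all genes higher and 21.1% lower (41.5% in either direction). Pcna averaged 153 ± 24.2 at 6 h and 66.4 ± 11.3 before LPS (SD, n = 6 each), with no overlap and a log2 difference of 0.98 ± 0.21 (SE, adjusted p = 0.0003685, limma). Mcm7, another helicase subunit, fell to 19.0 ± 5.67 at 6 h, against 47.3 ± 16.4 before LPS (SD, n = 6 each). Mcm5, Gmnn, Cenpa, Stmn1 and Top2a were the other genes that fell. Stmn1 had 3, 3 and 2 whole reads in the 6 h libraries of the second experiment. It had 11, 13 and 10 in those of the challenged experiment, against 4 to 17 before LPS. Outside the members Cdkn1a, which encodes the CDK inhibitor p21, was at 621 ± 48.9 at 6 h and 56.1 ± 10.3 before LPS, and Ccnd2, a G1 cyclin, at 36.4 ± 8.47 and 2.73 ± 2.61 (SD, n = 6 each).

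At 24 h 3 genes were called higher (Cdt1, Mcm6 and Hmgb2) and 3 lower (Rrm2, Ccna2 and Stmn1), against 29.2% of all genes called in either direction. Without untreated library 3 the count at 24 h was 2. Stmn1 had 2, 9 and 3 whole reads in the 24 h libraries of the second experiment and 14 in that of the challenged experiment. Cdt1 averaged 38.4 ± 4.76 at 24 h (n = 4) and 18.1 ± 8.55 before LPS (n = 6), with a log2 difference of 1.20 ± 0.37 (SE, adjusted p = 0.01563, limma). Rrm2 was at 0 in each 24 h library and at 1.12 ± 1.26 before LPS (SD, n = 6), so no fold is given. It had 2, 3 and 2 whole reads in the untreated libraries of the second experiment. In those of the third it was at 0, so the groups overlapped and the call rests on few reads. Hmgb2, a chromatin protein abundant in dividing cells, had 18.4 to 56.9 at 24 h, against 1.25 to 15.5 before LPS.

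At day 7 limma called 1 of 41 genes (Hmgb2, higher than before LPS, adjusted p = 0.04159), against 2.68% of all genes higher and 0.531% lower (3.22% in either direction). The cyclin, mitotic and chromatin genes summed to 320.3 and 197.6 in day 7 libraries 1 and 4, above the untreated 82.37 to 169.5. In libraries 2 and 3 they summed to 105.0 and 96.39, within that range. Mki67 averaged 4.27 ± 1.73 at day 7 (n = 4) and 2.31 ± 0.543 before LPS (n = 6), a difference that did not pass the threshold. The day 7 libraries form an experiment of their own, so time and experiment cannot be told apart, and the call was lost without any of 3 of the 4 day 7 libraries (numbers 1, 2 and 4) or any of 4 of the 6 untreated ones (numbers 1, 3, 5 and 6), where the count was 0. Neutrophil markers summed to 2608 to 19390 at day 7, against 6.01 to 815 before LPS, and markers of neutrophil precursors, cells that divide in the marrow, to 912 to 6375, against 0.858 to 514. Monocyte markers summed to 240.5 to 719 at day 7, against 20.6 to 42.8 before LPS. Border macrophage markers summed to 248 to 536, against 14.9 to 66.9, and erythroid markers to 1598 to 3599, against 0 to 257. The part of all these cells in the day 7 values was not tested.

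In Il10ra mutants the 48 h rise of most of these genes was not seen. At 48 h their summed level was 379 to 589 normalised reads per library in Il10ra mutants, against 649 to 1804 in Il10ra-floxed controls, with no overlap. Limma called 27 of the 42 tested genes, each of them lower in the mutants, against 12.7% of all genes higher and 15.2% lower (27.9% in either direction). The median log2 difference was -1.64, and that of all genes 0.01. For 16 genes the groups did not overlap, each lower in the mutants, as 11.8% of all genes did in this direction. Both groups shared the third experiment, which held 3 of the 5 mutant libraries. The other 2, from the second double-mutant experiment, gave no weight to the fold changes, because each experiment has its own term in the fit; the means given cover all 5 libraries.

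**Figure D2:**
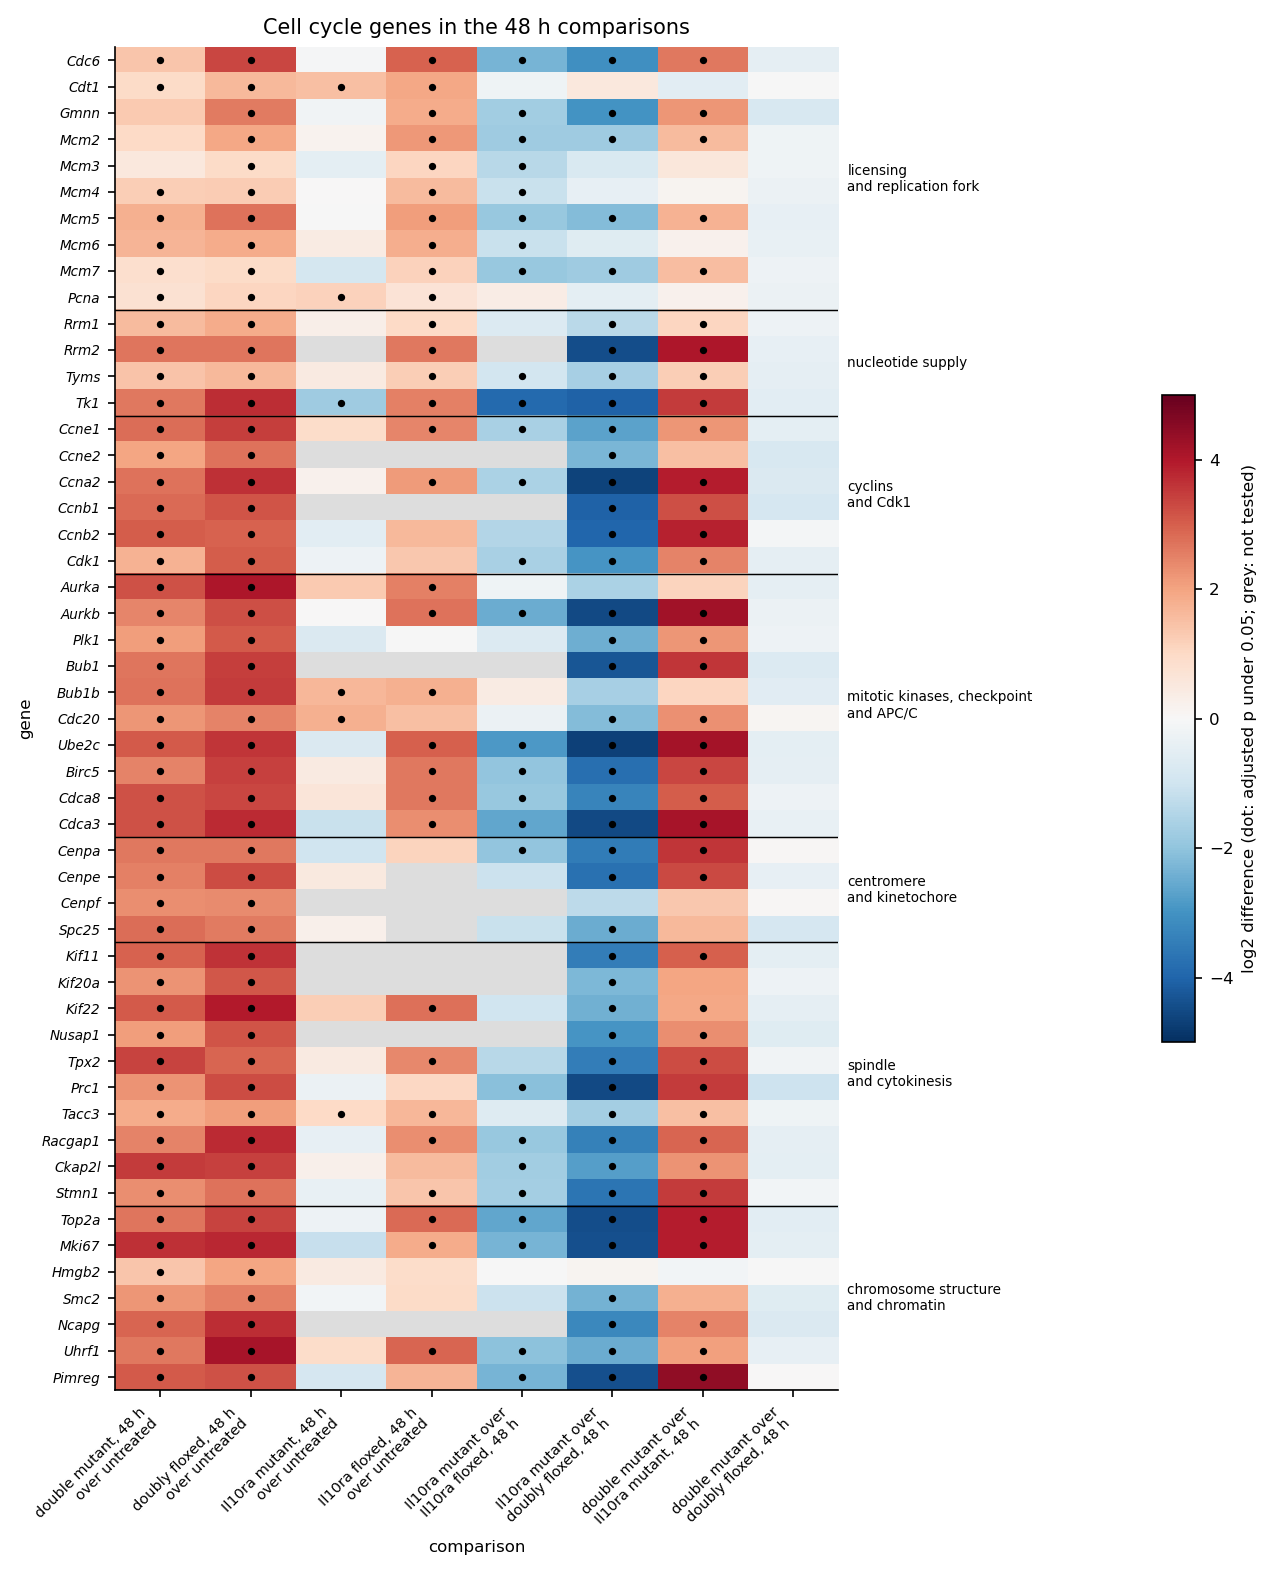
Log2 differences (colour) of the 51 cell cycle genes, by role, in 8 comparisons at 48 h; a dot marks an adjusted p under 0.05 (limma) and grey a gene that was not tested. The 4 columns against untreated libraries are red in both control lines and in double mutants, and pale for most genes in Il10ra mutants, while the column of double mutants over doubly floxed controls holds no dot.

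Of the replication genes 8 of 10 were lower in Il10ra mutants at 48 h. Mcm5 had the values 16.3, 30.4, 21.7, 19.5 and 15.2 in the mutants, against a lowest value of 47.3, a median of 82.1 and a highest value of 153 in the controls, with a log2 difference of -1.88 ± 0.34 (SE, adjusted p = 3.953e-05, limma). Cdt1 and Pcna were the other 2. Cdt1 averaged 61.1 ± 24.0 in the mutants (n = 5) and 65.2 ± 27.7 in the controls (n = 6), with a log2 difference of -0.20 ± 0.33 (SE, adjusted p = 0.6918, limma) and a 95% interval from -0.87 to 0.46. Pcna averaged 98.9 ± 30.3 in the mutants and 90.9 ± 24.8 in the controls, with a log2 difference of 0.39 ± 0.19 (SE, adjusted p = 0.1217, limma).

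Tk1 had the lowest p of the members. It had the values 0, 1.07, 1.60, 1.78 and 4.55 in Il10ra mutants at 48 h, against a lowest value of 7.09, a median of 28.7 and a highest value of 47.7 in Il10ra-floxed controls. The groups did not overlap, and the log2 difference was -3.89 ± 0.50 (SE, adjusted p = 6.402e-08, limma). Among the mitotic genes Ube2c averaged 1.66 ± 2.56 in the mutants and 10.2 ± 5.57 in the controls, and Cdca3, which promotes entry into mitosis, 1.54 ± 1.27 and 13.5 ± 8.96. Top2a, the topoisomerase that untangles chromosomes, averaged 3.66 ± 1.96 in the mutants and 26.5 ± 22.6 in the controls, with no overlap. Mki67 averaged 2.17 ± 1.55 in the mutants and 12.8 ± 11.8 in the controls, with a log2 difference of -2.32 ± 0.63 (SE, adjusted p = 0.003903, limma) and overlapping groups. Aurka, Bub1b, Cdc20 and Hmgb2 had log2 differences between -0.31 and 0.41, none past the threshold.

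The mutants' own response to LPS held few calls at 48 h. Against untreated Il10ra mutants limma called 5 of 42 genes higher (Cdt1, Pcna, Bub1b, Cdc20 and Tacc3) and 1 lower (Tk1), where 17.7% of all genes were higher and 17.9% lower. Cdt1 averaged 61.1 ± 24.0 at 48 h (n = 5) and 19.0 ± 6.58 before LPS (n = 9), with a log2 difference of 1.51 ± 0.35 (SE, adjusted p = 0.0005943, limma). Pcna had a log2 difference of 1.16 ± 0.20 (SE, adjusted p = 8.537e-06, limma). Tk1 averaged 1.80 ± 1.69 at 48 h and 7.65 ± 3.70 before LPS, with a log2 difference of -1.76 ± 0.53 (SE, adjusted p = 0.007487, limma). The count was 10, with 5 in each direction, in a fit without the experiment term.

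The difference between the 48 h responses of mutants and controls was tested as an interaction. Limma called 22 of 42 genes, each with a smaller response in Il10ra mutants, against 6.74% of all genes in the positive and 9.64% in the negative direction. Tk1 had an interaction of -4.39 ± 0.63 on the log2 scale (SE, adjusted p = 2.812e-06, limma), Ube2c one of -3.90 ± 0.72 and Cdca3 one of -3.37 ± 0.67. Within the third experiment alone, with 3 mutant libraries at each time, the count was 14. Cdt1, Pcna and Bub1b, with interactions of -0.39, 0.45 and 0.00, did not pass the threshold.

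At 6 h and 24 h the members called in Il10ra mutants went in both directions. A smaller share of members than of all genes was called in either direction, 35.7% at 6 h and 31.0% at 24 h. At 6 h 3 of 42 genes were higher than before LPS (Pcna, Tyms and Ccne1) and 12 lower, against 26.5% and 28.6% of all genes (55.1% in either direction). Mcm5 had a lowest value of 1.80, a median of 6.69 and a highest value of 8.61 at 6 h, against 14.7, 23.6 and 38.5 before LPS, with no overlap and a log2 difference of -1.93 ± 0.26 (SE, adjusted p = 1.666e-08, limma). At 24 h 5 genes were higher (Cdt1, Pcna, Ccne1, Bub1b and Hmgb2) and 8 lower, against 26.0% and 27.4% of all genes (53.5% in either direction). Within single experiments these counts were 9 at 6 h (second experiment) and 8 at 24 h (challenged experiment).

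Few genes passed the test between Il10ra mutants and floxed controls at these times. At 6 h limma called 1 of 42 genes (Tacc3, higher in Il10ra mutants, log2 difference 0.98 ± 0.27, SE, adjusted p = 0.03402), against 1.89% of all genes higher and 1.42% lower (3.31% in either direction). That count was 0 by edgeR and by DESeq2, and 0 without floxed 6 h library 4 or 6 or without mutant 6 h library 4 or 5. At 24 h limma called 0 of 42 genes, with 7 at an unadjusted p under 0.05 and 0 by edgeR and DESeq2, against 3.5% of all genes in either direction. The 24 h count was 4 without mutant library 1, 2 without floxed library 1 and 4 without floxed library 2.

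Other cell cycle genes separated Il10ra mutants from controls at 48 h. Cdkn1a averaged 551 ± 115 in the mutants (n = 5) and 52.5 ± 15.8 in the controls (n = 6), with a log2 difference of 3.23 ± 0.29 (SE, adjusted p = 1.568e-11, limma). Ccnd2 had 55.9 to 113.7 in the mutants and 8.32 to 29.2 in the controls, with no overlap. E2f1, the transcription factor that drives S phase genes, had a log2 difference of -2.55 and Lig1, the replicative DNA ligase, one of -2.46. Of the listed pathway genes outside the members, 14 of 40 S phase genes were lower, and of 32 G2 and M phase genes 10 were lower and 2 higher, where 15.2% of all genes were lower and 12.7% higher. Tnf averaged 1585 ± 842 in the mutants and 201 ± 69.0 in the controls.

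Microglial markers summed to 9337 to 15790 in Il10ra mutants at 48 h, against 22840 to 28320 in the controls. Monocyte markers summed to 35.8 to 195 in the mutants and 149 to 271 in the controls, and border macrophage markers (7 of 8 listed genes had a row) to 9.76 to 28.5 in the mutants and 59.6 to 108.3 in the controls. Neutrophil precursor markers summed to 3.74 to 342 in the mutants, with Ctsg at 0 in each, and to 0.917 to 9.02 in the controls, with Mpo, Elane, Ctsg, Camp and Ltf at 0 in each. The part of these cells in the difference was not tested.

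In the lines that carry floxed Tnf the genes rose at 48 h in both the controls and the double mutants. In double mutants limma called 48 of 51 genes higher at 48 h than before LPS, against 11.2% of all genes higher and 6.86% lower (18.1% in either direction), with a median log2 difference of 2.46 and a median of 0.03 over all genes. For 25 genes the groups did not overlap, each higher at 48 h, as 7.74% of all genes did in this direction. The 3 that were not called, Gmnn, Mcm2 and Mcm3, had log2 differences of 1.30, 0.98 and 0.53. In doubly floxed controls each of the 51 genes was called higher, against 13.8% of all genes higher and 9.83% lower (23.6% in either direction), with a median of 3.09 and a median of 0.00 over all genes. For 42 genes these groups did not overlap, as 7.67% of all genes did in this direction.

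Marker sums differed between the same groups. Monocyte markers summed to 233 to 532 at 48 h and to 16.1 to 56.5 before LPS in double mutants, and to 165 to 470 at 48 h and to 10.9 to 38.9 before LPS in doubly floxed controls. Microglial markers summed to 20760 to 25660 at 48 h and to 33630 to 36560 before LPS in double mutants, and to 23060 to 27020 at 48 h and to 36980 to 41140 before LPS in doubly floxed controls. Neither sum overlapped between 48 h and untreated libraries in either line. Border macrophage markers summed to 29.8 to 129 at 48 h and to 13.4 to 85.8 before LPS in double mutants, and to 28.5 to 236 at 48 h and to 17.1 to 126.1 before LPS in doubly floxed controls. Neutrophil markers summed to 20.5 to 953 at 48 h and to 6.34 to 850 before LPS in double mutants, and to 52.7 to 1428 at 48 h and to 1.48 to 899 before LPS in doubly floxed controls, with Elane at 0 in each of these libraries. These sums overlapped between 48 h and untreated libraries. The part of these cells in the rise was not tested.

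Mki67 shows the pattern library by library in this table. It had the values 15.02, 131.8, 86.3 and 47.4 in double mutants at 48 h, and 2.25, 5.64, 7.80, 5.66 and 0 in untreated double mutants, with a log2 difference of 3.66 ± 0.59 (SE, adjusted p = 1.257e-05, limma). In doubly floxed controls it had a lowest value of 39.6, a median of 90.1 and a highest value of 150 at 48 h, against 1.33, 5.55 and 8.13 before LPS, with a log2 difference of 3.76 ± 0.51 (SE, adjusted p = 3.193e-07, limma). Neither pair of groups overlapped.

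The size of the rise differed by role in these lines. In double mutants the median log2 difference was 1.11 for licensing and fork genes, 2.13 for nucleotide supply, 2.70 for mitotic kinase and checkpoint genes and 2.40 for spindle genes. In doubly floxed controls the median was 1.74 for licensing and fork genes, 2.27 for nucleotide supply, 3.44 for mitotic kinase and checkpoint genes and 3.20 for spindle genes. Uhrf1, which recognises hemimethylated DNA at the fork, rose most in doubly floxed controls (log2 difference 4.13 ± 0.53, SE, adjusted p = 9.503e-08, limma) and Mcm3 least (0.95 ± 0.22, SE, adjusted p = 0.001207, limma). Aurka, the centrosomal Aurora kinase, averaged 24.4 ± 11.4 at 48 h and 0.663 ± 1.63 before LPS in doubly floxed controls (SD, n = 6 each). No test was made between roles.

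No gene passed the test between double mutants and doubly floxed controls at 48 h. Limma called 0 of 51 genes, with 1 at an unadjusted p under 0.05 (Prc1) and 0 by edgeR and DESeq2, where 0.0169% of all genes were called. The median log2 difference was -0.43, against -0.01 for all genes, and 4 of the 51 differences were positive. The intervals were wide. Tk1 averaged 68.9 ± 32.8 in double mutants (n = 4) and 88.3 ± 42.4 in doubly floxed controls (n = 6), with a log2 difference of -0.55 and a 95% interval from -1.43 to 0.34. Mki67 had a log2 difference of -0.49 with an interval from -1.65 to 0.66, so a moderate difference in either direction was not detectable with these libraries. At 6 h limma also called 0 of 51 genes, with 8 at an unadjusted p under 0.05 and 0 by edgeR and DESeq2, against 0.0678% of all genes. Without double mutant 6 h library 3 that count was 1.

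Set against the Il10ra mutants, which had a rise in few members, both groups were higher at 48 h. In double mutants 38 of 51 genes were higher than in Il10ra mutants, against 14.9% of all genes higher and 13.7% lower, with a median log2 difference of 2.27 and -0.02 over all genes. For 36 genes the groups did not overlap, as 13.9% of all genes did in this direction. In Il10ra mutants 42 of 51 genes were lower than in doubly floxed controls, against 16.6% of all genes higher and 17.3% lower, with a median of -2.93. For 40 genes these groups did not overlap, as 12.6% of all genes did in this direction. Fold changes against Il10ra mutants rest on the 2 libraries of the second double-mutant experiment, the one that both genotypes shared, while the means cover all 5. Without Il10ra mutant 48 h library 5 the count of genes higher in double mutants was 22, and within that experiment alone it was 25.

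**Figure D3:**
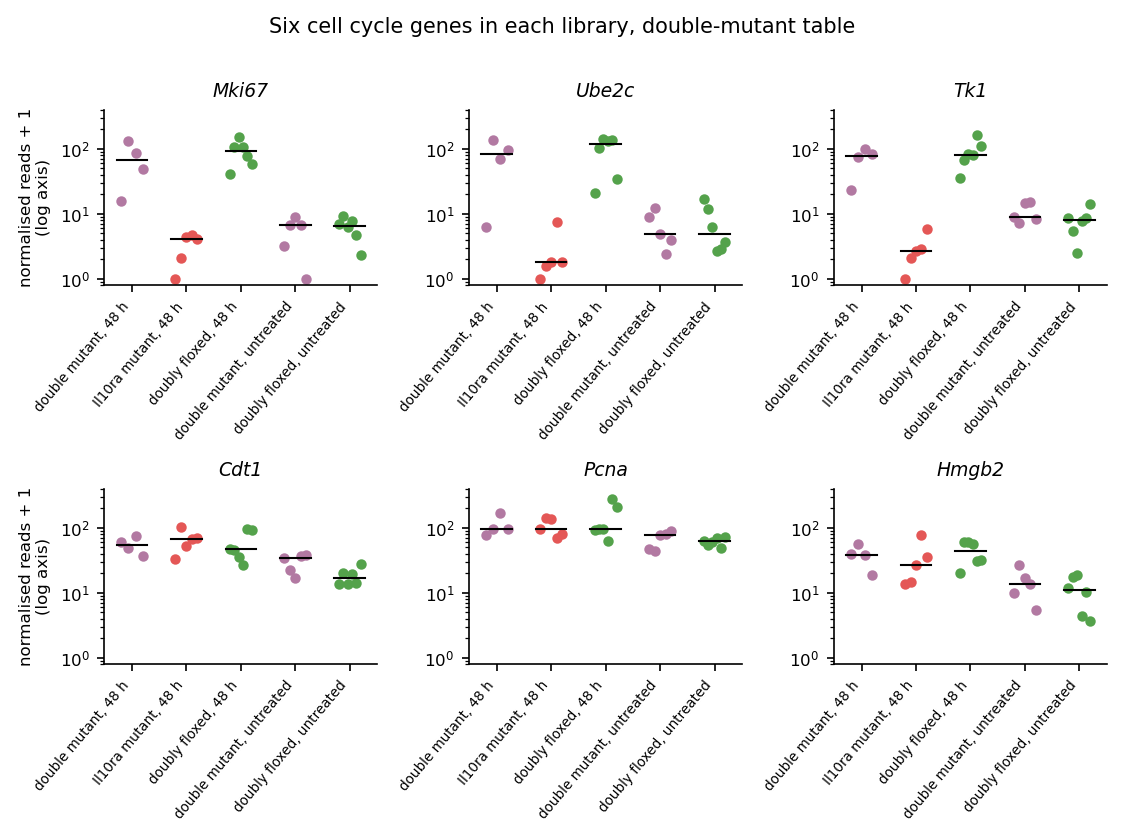
Normalised reads plus 1 (log axis) of 6 members in each library of the table with the double mutants, with the group median as a line. Mki67, Ube2c and Tk1 separate most double mutant and doubly floxed libraries at 48 h from Il10ra mutants, whereas Cdt1, Pcna and Hmgb2 overlap between the 3 genotypes at 48 h.

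Tk1 had the values 22.1, 74.2, 98.0 and 81.3 in double mutants at 48 h, against 0, 1.12, 1.68, 1.85 and 4.76 in Il10ra mutants, with a log2 difference of 3.48 ± 0.60 (SE, adjusted p = 2.192e-05, limma). Pimreg, a mitotic regulator, had the largest difference, with 3.98, 56.3, 49.7 and 41.8 in double mutants, against 0 in 4 Il10ra mutant libraries and 1.59 in the fifth. Rrm2, the small subunit of ribonucleotide reductase, had 7.07 to 26.3 in double mutants and 0 to 1.12 in Il10ra mutants. Cdt1, Pcna and Hmgb2 again did not pass the threshold, with log2 differences of -0.54, 0.21 and -0.15. Of the 10 licensing and fork genes 5 were higher in double mutants, and of the 10 spindle genes 9.

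The listed pathway genes outside the members gave 7 of 41 S phase genes higher and 1 lower, and 27 of 46 G2 and M phase genes higher, in double mutants against Il10ra mutants at 48 h. Of all genes 14.9% were higher and 13.7% lower, so the count of S phase genes called higher is near the background. Ccnd2 had a log2 difference of -3.74, Gadd45b, a stress-induced growth arrest gene, one of -3.79 and Myc one of -1.86. Tnf averaged 6.09 ± 2.27 in double mutants and 1659 ± 882 in Il10ra mutants. Monocyte markers summed to 233 to 532 in double mutants at 48 h, to 37.6 to 203 in Il10ra mutants and to 165 to 470 in doubly floxed controls. Microglial markers summed to 20760 to 25660 in double mutants, to 9817 to 16500 in Il10ra mutants and to 23060 to 27020 in doubly floxed controls. The part of these cells was not tested.

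At 6 h after LPS a smaller share of members than of all genes was called in either direction in these lines. It was 25.5% in double mutants and 5.88% in doubly floxed controls. In double mutants 1 of 51 genes was higher than before LPS (Tyms) and 12 lower, against 22.8% and 21.5% of all genes (44.3% in either direction), and edgeR gave a count of 8. Mcm2 averaged 2.50 ± 1.97 at 6 h (n = 6) and 16.8 ± 6.74 in untreated double mutants (n = 5), with no overlap and a log2 difference of -2.39 ± 0.37 (SE, adjusted p = 1.289e-06, limma). Birc5, the survivin subunit of the chromosomal passenger complex, averaged 1.13 ± 1.63 at 6 h and 6.42 ± 2.85 before LPS. In doubly floxed controls 1 of 51 genes was higher than before LPS (Aurka) and 2 lower (Mcm3 and Mcm7), against 21.6% and 21.1% of all genes (42.7% in either direction).

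The make-up of the cell cycle reads differed among the 48 h libraries. S phase genes made up 62.6%, 24.7%, 40.2% and 30.2% of these reads in the 4 double mutant libraries, 57.7% to 77.8% in the 5 Il10ra mutant libraries and 21.5% to 55.9% in the 6 doubly floxed libraries. The Wilson 95% intervals, which cover counting error only, are drawn in the plot of these shares. In Il10ra-floxed controls the share was 60.5% to 74.6% at 48 h and 64.5% to 77.7% before LPS, in the table of that line. At day 7 it was 47.0%, 70.5%, 72.8% and 55.7% in libraries 1 to 4. The shares of Il10ra-floxed controls at 48 h and before LPS thus overlapped, while 3 of 4 double mutant and 4 of 6 doubly floxed libraries at 48 h held fewer S phase reads than other cell cycle reads. In double mutants the share was 49.05% to 71.75% before LPS and 55.6% to 73.9% at 6 h. In doubly floxed controls it was 57.9% to 74.4% before LPS and 48.1% to 71.6% at 6 h. These lines were measured in other experiments and in another table, so line and experiment cannot be told apart and no test was made.

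**Figure D4:**
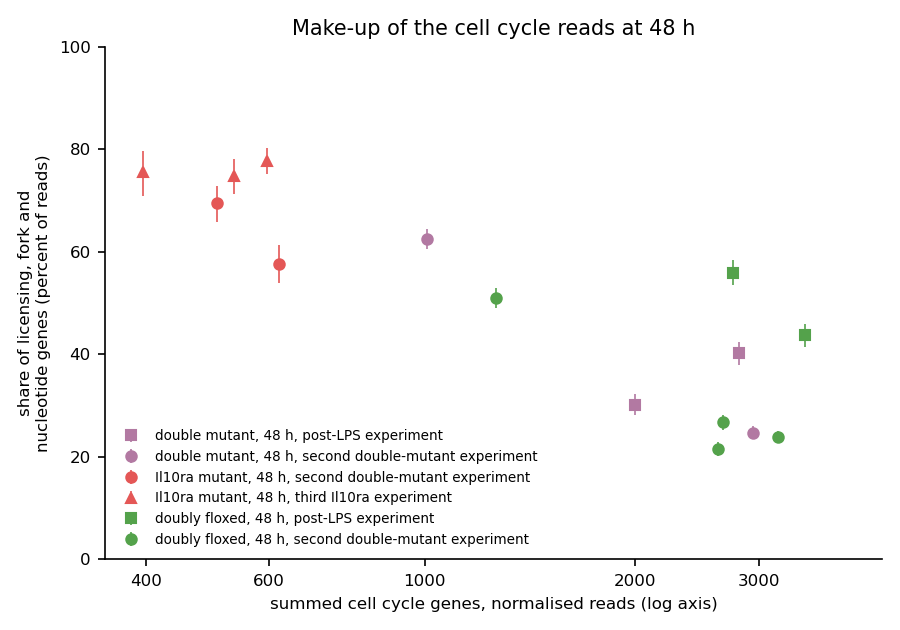
Share of S phase genes among the reads of the cell cycle genes (percent, with Wilson 95% intervals for counting error) against the summed level of the genes (normalised reads, log axis) in each 48 h library of the table with the double mutants. Libraries with a summed level of 1264 or less lie at a share of 50.9% or above. Within the second double-mutant experiment 1 double mutant and 1 doubly floxed library lie at a lower sum and higher share than the rest of their genotype.

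Within the second double-mutant experiment 2 libraries at 48 h had a lower sum and a higher share than the rest of their genotype there. The double mutants had 2 libraries in this experiment, so which of them was unusual cannot be told from it alone. Double mutant library 1 had a summed level of 1009 and a share of 62.6%, and library 2 of the same experiment 2943 and 24.7%. Doubly floxed library 2 had a summed level of 1264 and a share of 50.9%, against 21.5% to 26.7% in the other 3 libraries of this group and experiment. Doubly floxed library 7, of the other experiment, had a share of 55.9%. The same pair of libraries had the highest sums of neutrophil markers in their groups, 953 and 1428, and of monocyte markers, 532 and 470. Their sums of neutrophil precursor markers, 50.4 and 136.5, were also the highest in their groups. The library whose labels name 2 genotypes, also of this experiment, had a summed level of 1102 and a share of 69.4%. Its neutrophil and monocyte markers summed to 1074 and 349, and its neutrophil precursor markers to 154.5. The part of these cells in the high shares of S phase genes was not tested. Ccnb2, a cyclin of mitotic entry, was at 3.98 in double mutant library 1 and at 127.8 in library 2, and Stmn1, which destabilises microtubules, at 19.9 and 118. Leaving out 1 library at a time, the count of genes that rose in double mutants at 48 h stayed between 40 and 48 of 51, and in doubly floxed controls at 51.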

How the data were processed

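Bulk microglial MARS-seq libraries were analysed from 4 tables of signal values, which the authors deposited as normalised reads per gene, as the file headers name them; the build was mm10 per the submitters' processing notes, while no source used here names the aligner or the size factors. In each library these values were whole multiples of a step within 0.01 reads for 100.0% of values, and dividing by it gave whole reads (540642 to 2489084 per library, which limits precision for low genes). Rows with date-like gene names (17 to 18 per table) were left out. ATAC libraries (20) were not used here.

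Groups follow the sample labels. The main test was limma-trend (limma 3.58.1, R 4.3.3) on log2(value + 1) with group and experiment as terms; fold changes are on that scale and understate changes of low genes. Genes needed a value of 5 or more in a number of libraries no smaller than the smallest group, and in 2 or more. P-values were Benjamini-Hochberg adjusted over all genes tested (11103, 11555 and 11800) and called under 0.05. They measure the spread between these samples, which may be technical. Alternatives were edgeR 4.0.16 and DESeq2 1.42.0 on the recovered reads, a pseudocount of 5, no filter, TMM scaling, no experiment term, single experiments, a replicate block and each library left out. Same-numbered samples passed the check for pairing in doubly floxed mice at 6 h only (5 pairs, correlations 0.131 to 0.226). There the block gave 3 calls, as the fit without it did. These same-numbered samples also shared an experiment, which was not removed before the correlation, so pairing cannot be told from it. The fitting code was tested on simulated data with known changes. Of 100 genes changed 2-fold it called 17 for Il10ra-floxed controls at 48 h against untreated. For Il10ra mutants against floxed controls at 48 h it called 25, and for double mutants against Il10ra mutants 6. Of 100 genes changed 4-fold it called 94, 89 and 69 in the same order. Changes of 2-fold were thus mostly missed.

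The genes and lists were chosen with earlier results of these data known. Named in each comparison are the 2 genes of each role with the highest mean, the 5 with the lowest p, the largest rise and fall among those called, up to 6 called pathway genes, Il10ra and Tnf, and every gene where a count is 5 or fewer; others named were chosen after their values were seen.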

Additional observations from a re-analysis of the deposited data

Results flagged for a closer look

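Of 176 groups of values checked for a library far from the rest of its group, 17 were picked out, and chance picks out about 1 in 20. Untreated Il10ra-floxed library 1 had a summed level of the cell cycle genes of 579.2 normalised reads, against 355.4 to 406.2 in the others, and an Mcm5 value of 39.32, against 17.22 to 24.27. Il10ra-floxed library 2 at 24 h had an Hmgb2 value of 56.89, against 18.36 to 20.21. Il10ra-floxed library 6 at 48 h had an Mki67 value of 37.93, against 2.482 to 15.3, and a Top2a value of 76.86, against 9.927 to 31.5.

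At day 7 Il10ra-floxed library 2 had a Cdt1 value of 8.138, against 16.78 to 17.83. Library 1 of that group had an Hmgb2 value of 57.95, against 13.86 to 19.92, and a Ube2c value of 6.863, against 2.641 to 3.064. This library also had the highest sum of neutrophil markers at day 7, 19390, and the part of those cells was not tested.

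Among Il10ra mutants, untreated library 2 had an Mcm5 value of 38.45, against 14.7 to 26.5, and untreated library 8 an Hmgb2 value of 33.41, against 4.841 to 18.81. At 6 h mutant library 5 had an Hmgb2 value of 28.83, against 2.276 to 12.5. At 48 h mutant library 4 had a Ube2c value of 6.212, against 0 to 0.8022.

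Double mutant library 4 at 6 h stood apart in its summed level (588.7, against 314.6 to 382.6), Mki67 (14.95, against 2.855 to 4.913), Cdk1 (13.29, against 0 to 4.796) and Ube2c (33.21, against 4.283 to 11.46). Untreated doubly floxed library 6 had a Stmn1 value of 29.18, against 8.134 to 16.03.

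The 48 h response differed between Il10ra mutants and Il10ra-floxed controls for 22 of 42 genes by the interaction test (limma, adjusted p under 0.05). The 48 h library whose labels name 2 genotypes had a summed level of 1102, against 396.8 to 492.1 in untreated doubly floxed controls.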

How the results depend on the processing

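No named value changed sign among the called results under the alternatives run. Counts of called genes that moved by over 1.5 times were these, and the cause was not tested. In Il10ra-floxed controls the count was 2 at 24 h in the second experiment alone, and 0 at day 7 with a pseudocount of 5 or with the replicate block. In Il10ra mutants against untreated it was 9 at 6 h in the second experiment alone, 8 at 24 h in the challenged experiment alone and 10 at 48 h with no experiment term. Il10ra mutants against floxed controls at 6 h gave 0 by edgeR, by DESeq2, with a pseudocount of 5, with no experiment term, in the second experiment alone and with the replicate block. The difference of the 48 h responses gave 14 in the third experiment alone. Double mutants gave 8 at 6 h by edgeR, and 25 against Il10ra mutants at 48 h in the second double-mutant experiment alone.

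Leaving out each library gave, in Il10ra-floxed controls, 5 to 8 calls at 6 h, 2 to 6 at 24 h, 24 to 32 at 48 h and 0 to 1 at day 7. In Il10ra mutants it gave 14 to 17 at 6 h, 11 to 15 at 24 h and 4 to 7 at 48 h. Il10ra mutants against floxed controls gave 0 to 0 untreated, 0 to 1 at 6 h, 0 to 4 at 24 h and 19 to 28 at 48 h, and the difference of responses 18 to 25. Double mutants gave 11 to 17 at 6 h and 40 to 48 at 48 h, and doubly floxed controls 2 to 3 at 6 h and 51 to 51 at 48 h. Double mutants against doubly floxed controls gave 0 to 0 untreated, 0 to 1 at 6 h and 0 to 0 at 48 h. Il10ra mutants against doubly floxed controls gave 31 to 43 at 48 h, and double mutants against Il10ra mutants 22 to 39.

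Replicate numbers were not shown to pair the samples in any comparison. With the replicate block the counts were 31 in Il10ra-floxed controls at 48 h, 21 for Il10ra mutants against floxed controls at 48 h, 17 for the difference of responses, 48 in double mutants at 48 h, 49 in doubly floxed controls at 48 h and 31 for double mutants against Il10ra mutants.

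Depth limits genes with few reads, and day 7 cannot be told apart from its experiment. In Il10ra-floxed controls the 48 h libraries share no experiment with those at 6 h or 24 h.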
